A study of Mus musculus with 4 samples.

Results

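In C3H10T1/2 cells, 37 genes fell to well under the untreated level after 5-AZA, among them the tendon gene Tnmd, the sulfate-activating enzyme Papss2, the ubiquitin ligase Wwp2 and the lectin gene Lgals3. They were chosen from the mRNA table, with the transcripts of a gene summed, by a rule on the values of all 4 samples. A gene had at least 2 FPKM in both untreated samples, and its higher 5-AZA value lay below 0.4 times its lower untreated value. FPKM counts fragments relative to the length of a transcript and to the depth of a sample, so levels can be compared between genes. Comparisons between samples also depend on the scaling, and results after other scalings are given below. Of 21878 genes listed, 9295 had 2 FPKM or more in both untreated samples, and 41 of these met the limit. Genes of several symbol families, such as collagens, laminins and Wnt genes, were set aside by the rule. This removed Col2a1, Col9a1, Col27a1 and Lamb3 and left 37.

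The C3H10T1/2 line of mesenchymal stem cells came from mouse embryos and has the shape of fibroblasts. Total RNA of 2 untreated samples (1 and 2) and of 2 samples given 5-AZA (101 and 102) was sequenced after removal of ribosomal RNA. 5-AZA was given at 20 μM for 72 hours, and the cells were then kept in fresh medium for another 21 days. For the untreated samples the labels list no time in culture, so the treatment and the weeks in culture cannot be told apart. The labels do not say whether the 2 samples of a group came from separate cultures, and a p-value then measures only the spread between these samples. Because all 4 samples chose the genes, the values of the 37 are a description and carry no test.

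5-AZA is a cytidine analog that is built into nucleic acids and traps DNA methyltransferases, so that DNA methylation is lost as cells divide. C3H10T1/2 cells treated with it are known to give rise to muscle, fat and cartilage cells. Methylation of a promoter is classically tied to silence of its gene. Tendon and cartilage cells share a set of matrix genes. Their proteoglycans carry chains of chondroitin, keratan and heparan sulfate, which need an activated form of sulfate to be made.

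Untreated levels of the 37 genes ran from 2.23 FPKM for Dock8 to 243 FPKM for Lgals3, with 9 genes at 50 FPKM or more and 17 under 5 FPKM. Their summed level was 1083 and 1137 FPKM in untreated 1 and 2 and 258 and 305 FPKM in 5-AZA 101 and 102, or 0.315% and 0.340% of all mRNA FPKM untreated and 0.0786% and 0.0843% after. The median difference was -1.93 on the log2 scale, against -0.02 for all genes at 2 FPKM or more in both untreated samples. These differences, and the others given below for single genes of the set, compare group means after adding 0.1 FPKM, which understates the change of low genes. Folds of single genes of the set are ratios of group means with nothing added, and their median over the 37 genes was 4.29. Pairs of values stand in the order untreated 1 and 2 and then 5-AZA 101 and 102, and by the rule the groups overlap for none of the 37 genes. After 5-AZA, 15 of the 37 genes were under 1 FPKM in both samples, while 16 were still at 2 FPKM or more in both. Falls that met the limit made up 0.441% of the 9295 genes. With the groups exchanged, so that the higher untreated value lay below 0.4 times the lower 5-AZA value, the limit was met by 513 of 9730 genes, or 5.27%.

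**Figure D1:**
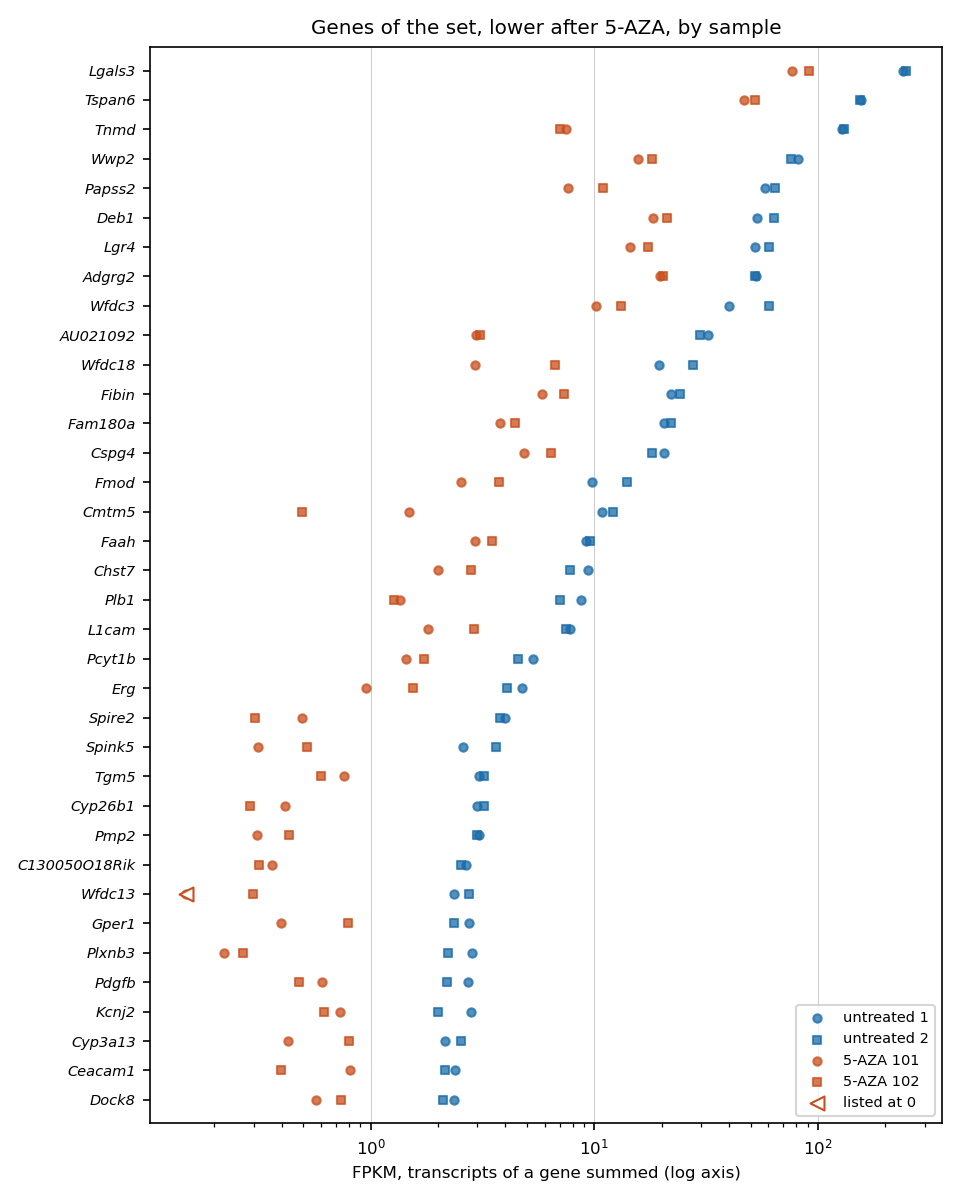
FPKM of 36 of the 37 genes in the 4 samples, with a logarithmic horizontal axis and genes ordered by untreated mean. Blue points are the untreated samples and orange points the 5-AZA samples. The colors do not overlap in any row, which the choice of genes fixes, and Tnmd shows the widest gap of the genes above 50 FPKM.

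Replicates of the set lay close together, which the rule favors because a wide spread makes its limit harder to meet. The ratios that follow were not computed for all genes. The higher replicate was a median of 1.12 times the lower one in the untreated pair and 1.26 times in the 5-AZA pair, and 5 genes (Wfdc18, Cmtm5, Wfdc13, Gper1 and Ceacam1) were more than 2-fold apart between the 5-AZA samples. 5-AZA 102 was the higher of its pair for 27 of the 37 genes, and for 77.4% of all genes at 2 FPKM or more. An exact permutation test of 2 against 2 samples cannot go below p = 0.333 (two-sided), so calls come from a limma fit across all genes. This fit over 13199 genes called 174 lower (1.32%) and 1724 higher (13.1%) at an adjusted p below 0.05 and more than 2-fold. All 37 genes were among those called lower, and nothing is read from this because the same contrast chose them. The 5 genes just inside the limit, among those at 5 FPKM or more, were Lgals3, Fmod, L1cam, Adgrg2 and Deb1, whose higher 5-AZA value was 0.380, 0.382, 0.387, 0.389 and 0.399 times the lower untreated value. Just outside lay Cyp2j6 at 0.419, Fbxo36 at 0.426, Dixdc1 and 1190005I06Rik at 0.428 and Apln at 0.429.

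Markers of other cell types moved at the same time. Skeletal muscle markers summed to 1.52 and 1.26 FPKM untreated and 760 and 1161 FPKM after 5-AZA, with 12 of 12 tested markers called higher. Adipocyte markers went from 101 and 93.0 to 1180 and 1610 FPKM, with 8 of 10 called higher. Fibroblast markers were abundant and summed to 9035 and 9052 FPKM untreated and 6040 and 5559 FPKM after 5-AZA. By limma 2 of 13 were called higher and 0 lower, and 1 was called lower after median centring. The 3 that were lower at an unadjusted p below 0.05 were S100a4, Vim and Fn1. They also passed the adjusted limit but fell by less than 2-fold (limma, adjusted p = 0.000931, 0.00119 and 0.00397). Most of the drop in the sum lay in S100a4, with 5027 and 5002 FPKM untreated and 2758 and 2355 FPKM after 5-AZA. In RNA from whole cultures, fewer cells that express a gene and less RNA per cell cannot be told apart, and the part of these shifts in the falls was not tested.

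Tnmd, which encodes tenomodulin, a membrane glycoprotein of tendon and ligament cells, showed the largest fall. It had 127 and 130 FPKM in untreated 1 and 2 and 7.46 and 6.99 FPKM in 5-AZA 101 and 102, a log2 difference of -4.14 and a 17.8-fold lower level. It was the third of the 37 genes by untreated level, and after 5-AZA 8 others lay above it. Fmod encodes fibromodulin, a small leucine-rich proteoglycan that binds collagen fibrils, and had 9.80 and 13.99 FPKM untreated and 2.53 and 3.75 FPKM after 5-AZA (log2 difference -1.89). Fibin, a secreted factor first described in the budding fin of fish and found in tendon, had 21.98 and 24.1 FPKM untreated and 5.83 and 7.29 FPKM after 5-AZA (log2 difference -1.79).

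Of 17 tested genes of a tendon list, which was written with the 37 genes known, 6 were called higher and 3 lower (3 and 3 after quantile normalization), and the 3 lower ones were Tnmd, Fmod and Fibin. Of the other 14, limma called 6 higher and 0 lower, with 3 lower at an unadjusted p below 0.05 (3 and 0 were called after quantile normalization). The rule had moved strong falls into the set, so their absence among these 14 is partly fixed by it. Scx, the transcription factor that marks tendon progenitors, had 2.25 and 2.43 FPKM untreated and 3.07 and 3.95 FPKM after 5-AZA and was not called (limma, adjusted p = 0.0817). Mkx, another tendon transcription factor, had 1.96 and 1.73 FPKM untreated and 1.37 and 1.59 FPKM after 5-AZA (limma, adjusted p = 0.383). Among the small leucine-rich proteoglycans, Lum rose from 83.96 and 53.9 to 333 and 242 FPKM (log2 fold change 2.08, SE 0.21, limma adjusted p = 0.000155). Epyc, an epiphycan of growth plate cartilage, rose from 5.75 and 6.85 to 34.8 and 35.5 FPKM (log2 fold change 2.47, SE 0.13, limma adjusted p = 3.32e-06). The call of Lum was lost without either 5-AZA sample. Others of this family were lower by less than 2-fold and were not called. Aspn had 171.5 and 166.2 FPKM untreated and 88.8 and 84.8 FPKM after 5-AZA (log2 fold change -0.96, SE 0.09, limma adjusted p = 0.000106). Prelp had a log2 fold change of -0.55 (limma, adjusted p = 0.00884). Kera was called higher, and Dcn was higher by less than 2-fold (limma, adjusted p = 0.0102).

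Lect1, listed today as Cnmd, encodes chondromodulin, the cartilage relative of tenomodulin, and was picked out after its values were seen. It had 231 and 280 FPKM untreated and 79.3 and 146 FPKM after 5-AZA, and was called lower (log2 fold change -1.24, SE 0.24, limma adjusted p = 0.00587), but not without either 5-AZA sample. It stayed outside the set because 5-AZA 102 lay above 0.4 times the untreated level. Of the genes that the rule set aside by symbol, Col2a1, the main collagen of cartilage, had 67.5 and 57.1 FPKM untreated and 4.13 and 6.84 FPKM after 5-AZA. Col9a1, a cartilage collagen that coats type II fibrils, had 25.2 and 23.6 FPKM untreated and 5.07 and 8.45 FPKM after 5-AZA. Col27a1, a fibrillar collagen of cartilage, had 8.46 and 8.60 FPKM untreated and 2.06 and 2.42 FPKM after 5-AZA. The list of cartilage and bone markers does not hold these collagens, and it names Cnmd by its present symbol, so that Lect1 was not matched. The highest matched marker of the list was Matn3, a cartilage matrix protein, which rose from 3.60 and 3.83 to 9.35 and 14.9 FPKM (limma, adjusted p = 0.000637), a call that was lost without 5-AZA 102 or without a filter on low values. Acan, the main cartilage proteoglycan, had 0.0466 and 0.0890 FPKM untreated and 0.0263 and 0.111 FPKM after 5-AZA, and of 5 tested cartilage and bone markers 4 were called higher and 1, Matn1, lower. The summed level of that list was 5.67 and 6.22 FPKM untreated and 17.7 and 24.95 FPKM after 5-AZA.

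Tnmd has Tspan6 as its next gene on chromosome X, and both belonged to the set. Tspan6 encodes a tetraspanin, a small protein that organizes other proteins in the membrane, and had 156 and 154 FPKM untreated and 46.5 and 52.2 FPKM after 5-AZA (log2 difference -1.65). The pair are read toward each other, Tnmd from the plus strand and Tspan6 from the minus strand, so they do not share a start. The next expressed genes on the outer sides were Pcdh19, with 13.9 and 10.7 FPKM untreated and 6.88 and 6.83 FPKM after 5-AZA, and Srpx2, with 24.7 and 26.1 FPKM untreated and 13 and 14.9 FPKM after 5-AZA. Beyond these, Diaph2 and Cstf2 differed by -0.15 and -0.16 on the log2 scale. The 250 bases before each of these starts are shown because the pair combined the largest fall of the set with a shared position. The sequences are from RefSeq (GRCm38.p6), at chrX:133850758-133851007 on the plus strand for Tnmd and chrX:133898430-133898679 on the minus strand for Tspan6, with each CG in capitals.
Tnmd: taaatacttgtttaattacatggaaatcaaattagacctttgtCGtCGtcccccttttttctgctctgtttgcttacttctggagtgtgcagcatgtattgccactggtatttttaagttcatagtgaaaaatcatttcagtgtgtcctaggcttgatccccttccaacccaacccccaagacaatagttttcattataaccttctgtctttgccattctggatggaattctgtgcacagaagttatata
Tspan6: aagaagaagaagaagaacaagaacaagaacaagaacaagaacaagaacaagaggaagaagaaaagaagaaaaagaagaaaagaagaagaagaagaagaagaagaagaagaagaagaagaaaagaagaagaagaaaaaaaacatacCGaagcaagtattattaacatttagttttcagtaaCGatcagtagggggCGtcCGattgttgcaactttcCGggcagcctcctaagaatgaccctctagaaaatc
The stretch of Tnmd held 2 CG pairs and that of Tspan6 held 5, and the latter opens with a long repeat rich in A and G.

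Enzymes of sulfation and a carrier of sulfated chains were in the set. Papss2 makes the sulfate donor that all sulfotransferases use, and its loss stunts cartilage growth in mice and humans. It had 58.2 and 64.2 FPKM untreated and 7.67 and 10.98 FPKM after 5-AZA, a 6.57-fold lower level (log2 difference -2.70). Papss1, the other gene for this step, had 47.4 and 43.9 FPKM untreated and 26.2 and 28.9 FPKM after 5-AZA (log2 fold change -0.73, SE 0.11, limma adjusted p = 0.00119), which is under 2-fold and was not called. Chst7 adds sulfate to chondroitin, and had 9.40 and 7.76 FPKM untreated and 2.00 and 2.82 FPKM after 5-AZA (log2 difference -1.79). Cspg4, also called NG2, is a chondroitin sulfate proteoglycan of the cell membrane that marks pericytes and progenitors, and had 20.5 and 18.1 FPKM untreated and 4.85 and 6.37 FPKM after 5-AZA (log2 difference -1.76). Of 13 tested pericyte markers, 7 were called higher and 1 lower, and the 1 was Cspg4.

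Outside the set, 3 more genes of sulfate handling were called lower. Of 40 tested genes of sulfate uptake, activation, transfer and removal, on a list written with the 37 genes known, 2 were called higher and 5 lower. The median log2 fold change over these 40 was -0.12. Slc26a2, the sulfate transporter, had 27.8 and 27.9 FPKM untreated and 10.2 and 14.5 FPKM after 5-AZA (log2 fold change -1.19, SE 0.16, limma adjusted p = 0.000891). Hs6st2, a heparan sulfotransferase, had 19.2 and 19.9 FPKM untreated and 8.16 and 11.5 FPKM after 5-AZA (log2 fold change -1.01, SE 0.16, limma adjusted p = 0.00226). Chst10, which sulfates a carbohydrate of neural cells, had 1.72 and 1.92 FPKM untreated and 0.780 and 0.855 FPKM after 5-AZA (limma, adjusted p = 0.0109). The calls of these 3 were lost without 5-AZA 101, and those of Hs6st2 and Chst10 also without untreated 2. The 2 genes called higher were Chst2 and Sulf1, and Sulf1, which strips sulfate from heparan chains outside the cell, rose from 2.26 and 1.74 to 7.86 and 7.33 FPKM (limma, adjusted p = 0.000129).

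Regulators of cartilage were also in the set. Wwp2, an E3 ubiquitin ligase whose gene holds the cartilage microRNA Mir140, had 81.6 and 75.4 FPKM untreated and 15.7 and 18.1 FPKM after 5-AZA (log2 difference -2.21). Its transcripts did not fall alike. The predicted transcript XM_006531301.1, which made up 85.8% of the untreated level, had group means of 67.4 FPKM untreated and 9.48 FPKM after 5-AZA, while NM_025830.3 had 8.35 FPKM untreated and 5.85 FPKM after 5-AZA. The division of reads between transcripts of a gene is the estimate of the authors' software. Of the relatives of Wwp2, Wwp1 had 11.8 and 10.1 FPKM untreated and 9.54 and 9.89 FPKM after 5-AZA, and Itch had 22.3 and 21.2 FPKM untreated and 22.3 and 20.1 FPKM after 5-AZA (limma, adjusted p = 0.414 and 0.863). Erg, an ETS transcription factor of joint cartilage and endothelium, had 4.76 and 4.06 FPKM untreated and 0.958 and 1.54 FPKM after 5-AZA (log2 difference -1.74). Its closest relative Fli1 had 5.03 and 5.03 FPKM untreated and 3.74 and 4.38 FPKM after 5-AZA (limma, adjusted p = 0.228). Of 75 tested mesenchymal and limb transcription factors, 6 were called higher and 2, Erg and Six2, lower (3 and 15 after quantile normalization). Endothelial markers, of whose cells Erg is typical, summed to 1.68 and 1.28 FPKM untreated and 5.39 and 5.05 FPKM after 5-AZA, with 3 of 6 tested called higher (1 higher and 1 lower after quantile normalization).

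Protease inhibitor genes were found in both directions. Proteins with a whey acidic protein (WAP) domain are small, secreted and mostly inhibit proteases. Wfdc3 had 39.9 and 60.5 FPKM untreated and 10.2 and 13.2 FPKM after 5-AZA (log2 difference -2.10). Wfdc18 had 19.6 and 27.7 FPKM untreated and 2.92 and 6.70 FPKM after 5-AZA (log2 difference -2.27), so its 5-AZA samples were further apart than its untreated samples. Wfdc13, a neighbor of Wfdc3 on chromosome 2, had 2.37 and 2.75 FPKM untreated, was listed at 0 in 5-AZA 101 and had 0.297 FPKM in 5-AZA 102. Between Wfdc13 and Wfdc3 lie Spint4 and Spint5, which had 0.0670 FPKM or less in every sample. Spink5, an inhibitor of serine proteases best known from skin, had 2.59 and 3.65 FPKM untreated and 0.314 and 0.521 FPKM after 5-AZA (log2 difference -2.64).

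Of 7 tested WAP genes outside the set, limma called 5 higher and 0 lower, and 0 were lower at an unadjusted p below 0.05. Wfdc3, Wfdc18 and Wfdc13 are left out of these 7 because they fell, so a lack of strong falls is partly set by the rule. Slpi, the secretory leukocyte protease inhibitor, rose from 2.75 and 4.70 to 101 and 151 FPKM (log2 fold change 5.07, SE 0.25, limma adjusted p = 3.04e-06). Wfdc21 rose from 2.10 and 4.49 to 85.8 and 128 FPKM (log2 fold change 5.05, SE 0.31, limma adjusted p = 8.58e-06). Wfdc12 rose from 0.891 and 0.339 to 14.8 and 24.01 FPKM (log2 fold change 4.85, SE 0.37, limma adjusted p = 2.97e-05). Within this family the untreated cells thus held mainly Wfdc3 and Wfdc18 and the 5-AZA samples mainly Slpi and Wfdc21. The call of Slpi was lost without 5-AZA 102, and those of Wfdc21 and Wfdc12 without either 5-AZA sample. Epithelial markers summed to 0.983 and 0.887 FPKM untreated and 20.7 and 26.5 FPKM after 5-AZA, with 5 of 7 tested called higher (3 higher and 1 lower after quantile normalization), and their part in these rises was not tested.

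**Figure D2:**
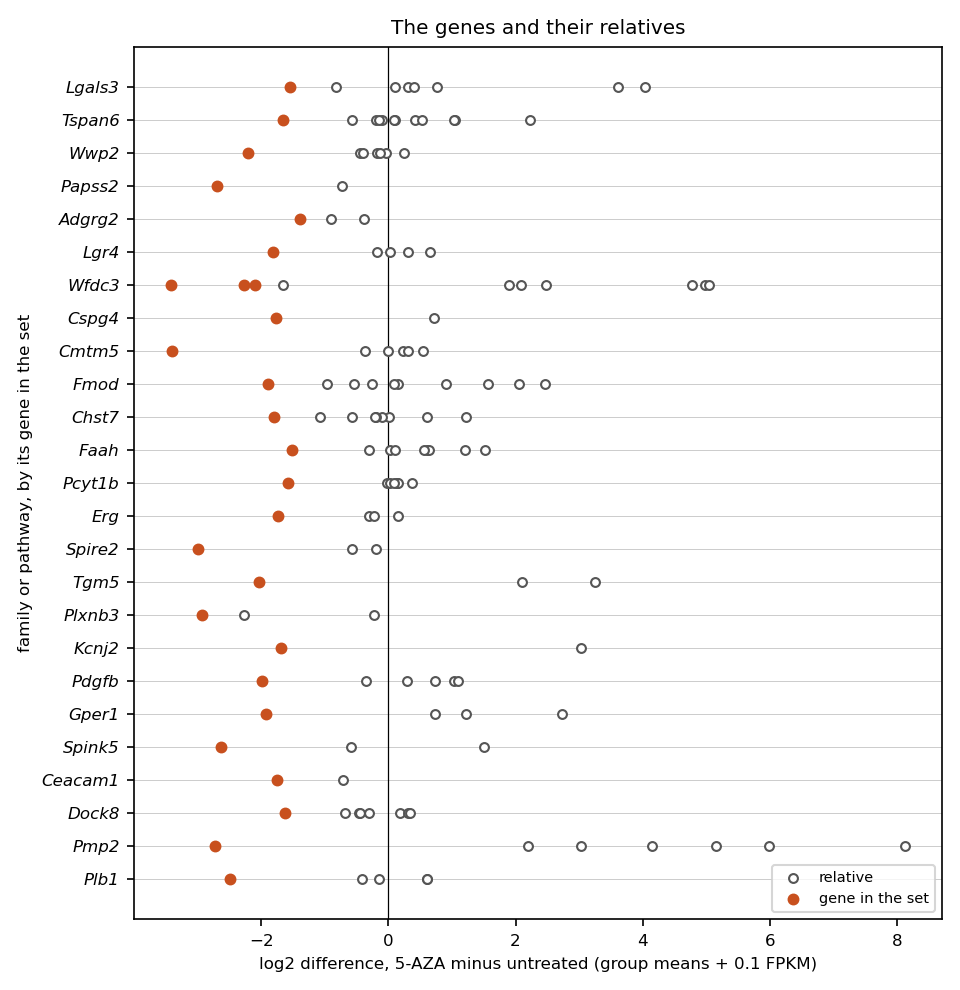
Log2 difference between 5-AZA and untreated group means (after adding 0.1 FPKM) of genes of the set, in orange, and their tested relatives, as open circles. Each row is a family or pathway that holds at least 1 tested relative. The 114 relatives plotted spread around 0 with 28 called higher and 2 lower, and the row of Wfdc3 holds both 3 genes of the set and Slpi, Wfdc21 and Wfdc12 at the right of that row. Relatives that met the limit of the rule are counted in the set.

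Several receptors were in the set, at high and at low levels. Lgr4, the receptor for R-spondins that strengthens Wnt signals, had 52.4 and 60.1 FPKM untreated and 14.5 and 17.3 FPKM after 5-AZA (log2 difference -1.82). Its ligand Rspo2 was high in both groups, with 167 and 166 FPKM untreated and 148 and 147 FPKM after 5-AZA (limma, adjusted p = 0.212), and Lgr5 stayed under 1 FPKM throughout. Adgrg2, an adhesion G protein-coupled receptor known from the epididymis, had 52.9 and 52.3 FPKM untreated and 19.6 and 20.3 FPKM after 5-AZA, the smallest fall of the 37 (log2 difference -1.39). Gper1, a membrane receptor that responds to estrogen, had 2.75 and 2.36 FPKM untreated and 0.396 and 0.794 FPKM after 5-AZA. Esr1, the nuclear estrogen receptor, rose from 0.0415 and 0.0290 to 0.816 and 0.778 FPKM, still a low level (limma, adjusted p = 0.00047). Of 95 tested G protein-coupled receptors and RGS proteins, 29 were called higher and 5 lower (11 and 13 after quantile normalization), and Adgrg2 and Lgr4 were 2 of the 5. The list does not hold Gper1.

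Plxnb3 encodes a plexin, a receptor for semaphorins that steers axons and cells, and had 2.83 and 2.21 FPKM untreated and 0.221 and 0.269 FPKM after 5-AZA (log2 difference -2.92). Plxnb1, its sister gene, had 2.13 and 1.97 FPKM untreated and 0.207 and 0.484 FPKM after 5-AZA, under the 2 FPKM of the rule in untreated 2, and was called lower (log2 fold change -2.34, SE 0.34, limma adjusted p = 0.0012), though not without 5-AZA 101. Plxnb2, by far the highest of the 3, had 30.2 and 27.3 FPKM untreated and 22.9 and 26.5 FPKM after 5-AZA (limma, adjusted p = 0.222). On a list of axon guidance genes that does not hold Plxnb3, 48 were tested, 11 were called higher and 1, Plxnb1, lower (5 and 3 after quantile normalization). L1cam, an adhesion molecule of the immunoglobulin family that is best known from axons, had 7.79 and 7.47 FPKM untreated and 1.80 and 2.89 FPKM after 5-AZA (log2 difference -1.66). On a list of adhesion molecules outside the integrins that does not hold Ceacam1, 32 were tested, 11 were called higher and 1, L1cam, lower (8 and 6 after quantile normalization). Ceacam1, an adhesion and inhibitory receptor, had 2.38 and 2.15 FPKM untreated and 0.808 and 0.398 FPKM after 5-AZA. Its reads could be shared with the near copy Ceacam2, which had 0.349 FPKM or less.

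Kcnj2, an inward rectifier potassium channel, had 2.82 and 2.00 FPKM untreated and 0.733 and 0.619 FPKM after 5-AZA, while its relative Kcnj14 rose from 0.01004 and 0 to 0.905 and 0.617 FPKM (limma, adjusted p = 0.000455). Of 68 tested ion channels, 21 were called higher and 2, Kcnj2 and Kcnh5, lower (12 and 10 after quantile normalization). Cmtm5, a membrane protein of the chemokine-like factor family, had 10.8 and 12.1 FPKM untreated and 1.49 and 0.491 FPKM after 5-AZA (log2 difference -3.41), with more than 2-fold between the 5-AZA samples. Its relatives Cmtm3, Cmtm4, Cmtm6 and Cmtm7 differed by 0.23, -0.36, 0.54 and -0.00 on the log2 scale, and none of these 4 was called.

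Pmp2, a fatty acid binding protein of myelin, had 3.06 and 2.98 FPKM untreated and 0.311 and 0.433 FPKM after 5-AZA (log2 difference -2.73). Its relatives went the other way. Fabp4, the fatty acid binding protein of fat cells, rose from 22.9 and 9.66 to 887 and 1196 FPKM (log2 fold change 6.10, SE 0.33, limma adjusted p = 4.81e-06). Crabp1, which binds retinoic acid in the cell, rose from 0.0535 and 0 to 37.8 and 33.02 FPKM (log2 fold change 8.16, SE 0.26, limma adjusted p = 3.13e-07). The call of Fabp4 was lost without either 5-AZA sample, and that of Crabp1 was kept in 11 of 11 other settings.

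Lgals3 and Pdgfb were among the genes of the set with an extracellular product. Lgals3 encodes galectin-3, a lectin that binds galactose on glycoproteins in and outside the cell, and was the highest gene of the set with 239 and 248 FPKM untreated and 76.3 and 90.8 FPKM after 5-AZA (log2 difference -1.54). Both of its reference transcripts fell to a like extent, from group means of 121 and 122 FPKM to 42.8 and 40.8 FPKM. Lgals1, the most abundant galectin here, had 1689 and 1556 FPKM untreated and 1741 and 1751 FPKM after 5-AZA and was not called (limma, adjusted p = 0.562). Macrophages also express Lgals3, and the macrophage and leukocyte markers summed to 4.62 and 5.79 FPKM untreated and 16.2 and 19.5 FPKM after 5-AZA, with 3 of 5 tested called higher (1 after quantile normalization). Most of that rise lay in Fcer1g, with 0.0955 and 0 FPKM untreated and 9.57 and 10.85 FPKM after 5-AZA. Ptprc, Adgre1, Csf1r, Itgam and Tyrobp were under 0.1 FPKM in every sample, and Lyz2 was not called. Pdgfb, a growth factor for pericytes and fibroblasts, had 2.71 and 2.19 FPKM untreated and 0.605 and 0.479 FPKM after 5-AZA (log2 difference -1.99), while its receptor Pdgfrb had 35.5 and 33.1 FPKM untreated and 40.6 and 43.95 FPKM after 5-AZA (limma, adjusted p = 0.0653). Of 110 tested secreted growth factors and cytokines, 46 were called higher and 7 lower (29 and 16 after quantile normalization), and Pdgfb was the 1 of the 7 in the set.

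Lipid enzymes of the set acted at different steps. Faah, which breaks down the endocannabinoid anandamide, had 9.21 and 9.53 FPKM untreated and 2.93 and 3.48 FPKM after 5-AZA (log2 difference -1.52). Mgll, which breaks down the other main endocannabinoid, rose from 3.78 and 4.50 to 8.91 and 15.2 FPKM (log2 fold change 1.47, SE 0.24, limma adjusted p = 0.00216), a call that was lost without either 5-AZA sample. Plb1, a membrane phospholipase, had 8.70 and 7.01 FPKM untreated and 1.36 and 1.27 FPKM after 5-AZA (log2 difference -2.49). Pcyt1b makes the activated choline of phosphatidylcholine synthesis, and had 5.32 and 4.58 FPKM untreated and 1.44 and 1.73 FPKM after 5-AZA (log2 difference -1.58). Pcyt1a, the main gene for that step, had 19.98 and 19.4 FPKM untreated and 20.4 and 22.8 FPKM after 5-AZA (limma, adjusted p = 0.465).

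Among other enzymes, Cyp26b1, which degrades retinoic acid, had 2.99 and 3.22 FPKM untreated and 0.416 and 0.288 FPKM after 5-AZA (log2 difference -2.83). The other genes of that step, Cyp26a1 and Cyp26c1, were under 0.2 FPKM in every sample. Cyp3a13, a cytochrome P450 of xenobiotic metabolism whose family holds near copies, had 2.15 and 2.53 FPKM untreated and 0.428 and 0.800 FPKM after 5-AZA. On a list of steroid, xenobiotic and aldehyde metabolism that does not hold Cyp3a13, 31 genes were tested, 11 were called higher and 1, Cyp26b1, lower (10 and 2 after quantile normalization). Tgm5, a transglutaminase of skin, had 3.04 and 3.20 FPKM untreated and 0.763 and 0.603 FPKM after 5-AZA. Tgm2, the widespread transglutaminase, rose from 0.383 and 0.412 to 4.01 and 5.24 FPKM (log2 fold change 3.24, SE 0.24, limma adjusted p = 2.35e-05), and this call was kept in 11 of 11 other settings.

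Inside the cell, Spire2, an actin nucleator that works with formins, had 3.97 and 3.79 FPKM untreated and 0.492 and 0.304 FPKM after 5-AZA (log2 difference -3.00), while Spire1 had 9.78 and 10.3 FPKM untreated and 6.37 and 7.01 FPKM after 5-AZA, a difference under 2-fold (limma, adjusted p = 0.0141). Dock8, an activator of a small GTPase that is best known from immune cells, was the lowest gene of the set with 2.35 and 2.10 FPKM untreated and 0.572 and 0.737 FPKM after 5-AZA. Deb1, listed as Ss18l2 in RefSeq, had 53.2 and 63.6 FPKM untreated and 18.2 and 21.2 FPKM after 5-AZA (log2 difference -1.56).

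The last 3 genes have no settled function. AU021092 had 32.1 and 29.8 FPKM untreated and 2.97 and 3.09 FPKM after 5-AZA, a 10.2-fold lower level (log2 difference -3.31). Fam180a, predicted to be secreted, had 20.5 and 22 FPKM untreated and 3.78 and 4.41 FPKM after 5-AZA (log2 difference -2.35). C130050O18Rik, the gene before Gper1 on chromosome 5, had 2.67 and 2.54 FPKM untreated and 0.363 and 0.315 FPKM after 5-AZA (log2 difference -2.62). The genes around that pair, 3110082I17Rik, Gpr146, Zfand2a and Ints1, differed by -0.12, 0.33, -0.05 and -0.13 on the log2 scale.

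Relatives of the 37 genes are given beside them. Of 175 relatives, on lists written with the 37 genes known, 118 were tested, 29 were called higher and 2 lower (19 and 7 after quantile normalization), and the 2 were Plxnb1 and Chst10. The 79 relatives at 2 FPKM or more in both untreated samples had a median log2 difference of 0.09, and they covered 22 of 31 families. A relative that met the limit was counted in the set, as Wfdc13 and Wfdc18 were, so the relatives lack the strongest falls by choice. The numbers are therefore given side by side, and no test of the set against its relatives was made. By the compartment terms listed with the genes, 12 of 37 were extracellular (32.4%, against 6.01% of the 9229 annotated genes at 2 FPKM or more), and 15 were integral to a membrane (40.5% against 18%). Nuclear proteins made up 7 of 37 (18.9% against 42.4%), and 1 was mitochondrial (2.703% against 13.6%).

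Chromosome X held 7 of the 37 genes: Tnmd, Tspan6, Adgrg2, L1cam, Plxnb3, Chst7 and Pcyt1b. It held 311 of 9283 genes at 2 FPKM or more with a known chromosome, or 3.35%, and 18.9% of the set. Of the X-linked genes 2.25% belonged to the set, against 0.334% of the 8972 autosomal genes and at most 0.714% on any one autosome. The rest of the chromosome was slightly lower as well. The 304 X-linked genes outside the set had a median log2 difference of -0.19, and 72.4% of them were lower after 5-AZA, while autosomal genes outside the set had a median of -0.01 and 51.8% were lower. Autosome medians ran from -0.09 to 0.05.

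This offset of chromosome X appeared in each comparison of a 5-AZA with an untreated sample, though these comparisons reuse the same samples and are not independent. The X median minus the autosome median was -0.15 and -0.16 for 5-AZA 101 against untreated 1 and 2, and -0.23 and -0.21 for 5-AZA 102. Between the untreated samples it was 0.0019, and between 5-AZA 102 and 101 it was -0.06. Of 465 tested X-linked genes, 21 were called lower (4.52%), against 152 of 12672 autosomal genes (1.20%). X-linked genes were also called higher somewhat more often, 18.7% against 12.8%. With the limit at 0.3 in place of 0.4, which was tried after seeing the data, 2 of the 16 genes left were X-linked, Tnmd and Plxnb3.

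**Figure D3:**
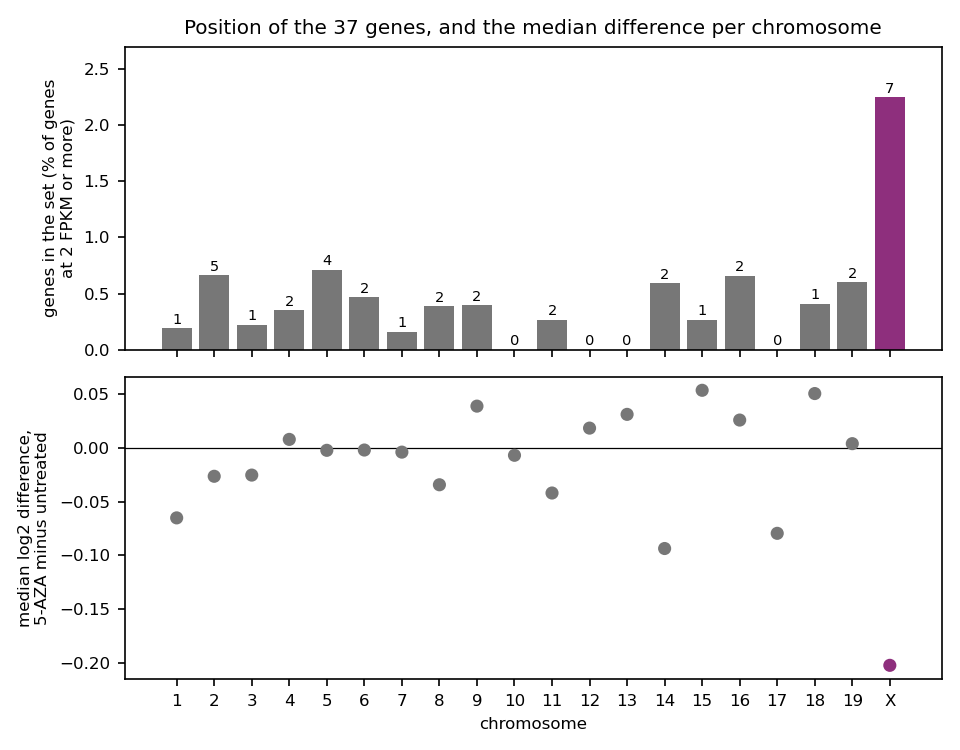
Upper panel, share of genes at 2 FPKM or more that belong to the set, by chromosome, with the number of genes above each bar. Lower panel, median log2 difference of all genes at 2 FPKM or more per chromosome. Chromosome X has the highest share, 2.25%, and the lowest median, -0.20.

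Promoters of the set were poor in CG. The CpG ratio, which is the number of CG pairs over the number that the C and G content predicts, was computed in windows from 250 bases before to 50 after each start in RefSeq (GRCm38.p6). Of the 37 genes 31 were matched, and those not matched included AU021092, Pmp2, Spink5, Wfdc13 and Pdgfb. The median ratio was 0.412 (quartiles 0.161 and 0.661), against 0.790 (quartiles 0.629 and 0.925) in 7540 other genes at 2 FPKM or more. A ratio below 0.4 was found in 15 of 31 genes (48.4%) and in 7.81% of the others. A window held a median of 9 CG pairs in the set and 22 in the others, while the C and G content was 57.3% and 61.3%. Genes that met the limit in the other direction, and so rose, had a median ratio of 0.377 (365 genes), so a low ratio was not particular to the genes that fell.

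The low ratio was seen at low and at high levels. Among genes with an untreated mean under 5 FPKM the median was 0.301 in the set (12 genes) and 0.764 outside, and at 5 FPKM or more it was 0.472 (19 genes) and 0.797. X-linked genes of the set had a median of 0.412 and the others 0.419. Both ends of the range are shown, Cmtm5 with the lowest ratio of the set, 0.0401, and Dock8 with the highest, 1.14, again as the 250 bases before the start with each CG in capitals. They lie at chr14:54936247-54936496 and chr19:24999279-24999528 (GRCm38.p6), both on the plus strand.
Cmtm5: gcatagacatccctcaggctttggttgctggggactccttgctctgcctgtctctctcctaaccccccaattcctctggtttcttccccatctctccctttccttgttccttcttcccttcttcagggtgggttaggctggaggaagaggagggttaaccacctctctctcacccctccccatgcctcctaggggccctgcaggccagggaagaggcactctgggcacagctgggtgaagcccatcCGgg
Dock8: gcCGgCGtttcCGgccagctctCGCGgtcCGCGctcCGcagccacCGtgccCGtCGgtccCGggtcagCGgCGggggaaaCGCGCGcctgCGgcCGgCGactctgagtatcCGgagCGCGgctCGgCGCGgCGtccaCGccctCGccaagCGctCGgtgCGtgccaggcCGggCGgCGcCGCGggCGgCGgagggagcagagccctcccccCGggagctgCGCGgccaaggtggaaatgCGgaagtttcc
The 250 bases shown hold 1 CG for Cmtm5 and 43 for Dock8, and the full windows hold 1 and 52. Both genes fell, by 3.41 and 1.62 on the log2 scale. Papss2 and Plb1 each have 2 listed starts. Those of Papss2 had ratios of 0.876 and 0.0679, and those of Plb1 had 0.0565 and 0.0569.

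**Figure D4:**
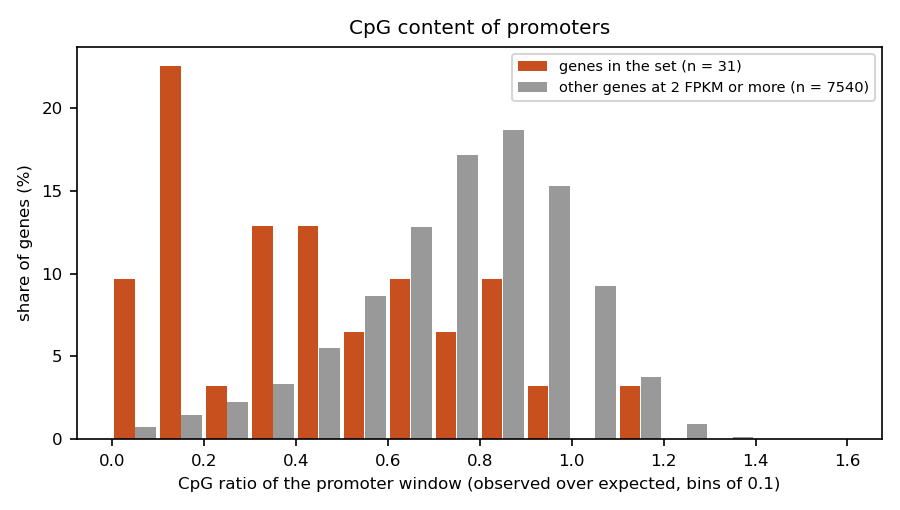
Share of genes by CpG ratio of the promoter window, in bins of 0.1, for 31 genes of the set (orange) and 7540 other genes at 2 FPKM or more (gray). The set spreads over the range with 15 of 31 genes below 0.4, while the other genes peak between 0.8 and 0.9.

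The same windows were searched on both strands for short motifs. TATAAA was in 5 of 31 genes (16.1%, against 8.53% of the other genes at 2 FPKM or more and 15.7% of all genes), CCAAT in 15 (48.4%, 44.2% and 41.1%), and TGANTCA, bound by AP-1, in 3 (9.68%, 5.50% and 8.97%). CATTCC, bound by TEAD factors, was in 7 (22.6%, 13.3% and 16.6%), CAGCTG, an E-box, in 8 (25.8%, 16.7% and 18.3%), and ACAATG, bound by SOX factors, in 6 (19.4%, 8.36% and 14.3%). The CArG box was in 1 gene, Lgr4 (3.23%, 1.57% and 1.81%). A CArG box can contain CCAAT or TATAAA, and Lgr4 was also counted for CCAAT. None of the other motifs contains another, though neighboring matches may share letters, and a match is a string of letters that need not be a site in use.

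The transcripts of the set are the values that the rule summed, so their levels are a description. Of 53 transcripts of the set at 1 FPKM or more in untreated cells, 53 were lower after 5-AZA and 47 were below 0.4 times, while 14 of the 37 genes had a single listed transcript. Of 51 lncRNAs that overlap 21 of the genes, 5 had a mean of 0.5 FPKM or more, and all 5 lay on the strand of the gene, so reads may be shared. TCONS_00011457 in Lgr4 had 5.69 and 6.08 FPKM untreated and 1.57 and 1.45 FPKM after 5-AZA. NONMMUT034475.2 in Papss2 had 1.08 and 1.11 FPKM untreated and 0.148 and 0.167 FPKM after 5-AZA. NONMMUT039063.2 in Lgr4 had 3.24 and 3.27 FPKM untreated and 0.83 and 0.57 FPKM after 5-AZA. NONMMUT039468.2 in Tgm5 had 5.86 and 9.54 FPKM untreated and 6.86 and 7.27 FPKM after 5-AZA, so it did not share the fall of its gene. The highest of the 5, NONMMUT067063.2 in Wwp2, had 24.22 and 13.01 FPKM untreated and 12.41 and 21.1 FPKM after 5-AZA. It did not share the fall of Wwp2 either, and its replicates lay far apart in both groups. Circular RNAs were rare: 2 of the 37 genes hosted one (5.41%, against 21.5% of genes at 2 FPKM or more), with 3 reads from Dock8 in untreated 1, 4 reads from Wwp2 in untreated 2 and 0 reads in the other samples.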

How the data were processed

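RNA of 2 untreated and 2 5-AZA samples of C3H10T1/2 was compared, grouped by the treatment label. The deposited values, made by the authors, are FPKM for each mRNA or lncRNA transcript and RPM for each circRNA, after removal of ribosomal RNA, stranded library preparation and read trimming. The submitters' processing notes name Trimmomatic, HISAT2, Bowtie2 2.2.9, eXpress 1.5.1 and mm9, without their roles. Total counts and the depth of the samples are not used here, so intervals for counting error are not given, and the number of samples limits the precision. mRNA FPKM sums were 328410 to 361664 per sample.

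Transcripts of a gene were summed. Genes with a mean of at least 0.1 FPKM were fitted on log2(FPKM + 0.1) with limma 3.58.1 (lmFit, eBayes with trend, two-sided) in R 4.3.3, adjusted by Benjamini and Hochberg's method, and called at an adjusted p below 0.05 and more than 2-fold. limma was used because the count test named in the study needs counts. The fit was also run on simulated data with as many planted rises as falls, unlike the real calls, which were mostly higher. That run gives no error rate for the calls reported here. Tables were handled with pandas 2.3.3 and numpy 2.4.6, and figures drawn with matplotlib 3.10.9.

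The 37 genes and all lists were chosen with earlier results of these data known. Genes were named in full as the 12 largest falls at 5 FPKM or more and the 12 highest untreated levels, with 5 on each side of the limit, neighboring genes, genes of the lists, and the rest of the set, except for 1 gene that is not reported here. Relatives were named as examples after their values were seen, and so was Lect1.

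Chromosomes and promoter windows are from RefSeq (GRCm38.p6), matched by gene identifier. The circRNA positions of the files lay inside these gene bounds for 88.0% of 2460 host transcripts, although mm9 is named, and no position from the files is printed. circRNA reads are RPM values divided by the value of 1 read. Other limits, pseudocounts, filters, scalings, eBayes without trend and the omission of each sample were tried. Columns with the authors' GO terms were used for compartments.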

Additional observations from a re-analysis of the deposited data

How the results depend on the processing

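The number of genes that met the rule was 37 as reported, 16 with the limit at 0.3, 56 at 0.5, 20 with at least 5 FPKM, 59 after quantile normalization and 42 to 49 without 1 sample. It moved by less than 1.5 times with at least 1 FPKM (45), with the highest transcript of each gene (28, of which 26 were shared) and with median centring (40). The 11 genes lost with the highest transcript alone were Adgrg2, C130050O18Rik, Ceacam1, Cyp26b1, Dock8, Erg, L1cam, Lgals3, Pdgfb, Plxnb3 and Spink5. The median log2 difference was -1.93 as reported, -1.54 with 1 FPKM added, -2.35 after quantile normalization and -2.19 to -1.80 without 1 sample. Lower calls over all genes numbered 174 as reported, 107 and 86 with 0.5 and 1 FPKM added, 83 without a filter on low values, 886 after quantile normalization and 52 to 184 without 1 sample. Higher calls numbered 1724 as reported, 875 with 1 FPKM added, 845 with a mean of at least 1 FPKM, 1041 after quantile normalization and 733 to 1617 without 1 sample. Of the calls 90.8% were higher as reported, 86.4% after centring and 54.0% after quantile normalization, which moved the median of all genes tested from 0.05 to -0.12.

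Of the 37 genes, 21 to 37 were called lower without 1 sample, with 22 without 5-AZA 101 and 21 without 5-AZA 102, where lower calls over all genes were 52 and 70. When 1 sample is left in a group, it is assumed to vary like the other group. The cause of these shifts was not tested. The number on chromosome X (added after seeing the data) was 2 of 16 at 0.3, 10 of 56 at 0.5, 9 of 45 at 1 FPKM and 5 of 20 at 5 FPKM. It was 7 of 40 after median centring and 7 of 59 after quantile normalization. The median CpG ratio was 0.422 and 0.346 with the start of highest and lowest ratio of each gene. No paired analysis was possible because the untreated and 5-AZA samples share no replicate number.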

Other observations

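Genes outside the set that were called lower on chromosome X numbered 14, beside the 7 of the set. Of these, Hs6st2, Vegfd, A630033H20Rik, Pak3, Pir, Apln, Stard8 and Bmx had 2 FPKM or more in both untreated samples, and their higher 5-AZA value was 0.429 to 0.627 times the lower untreated value. Vegfd, a growth factor of lymph vessels, had 14.9 and 17.7 FPKM untreated and 7.32 and 6.67 FPKM after 5-AZA (log2 fold change -1.20, SE 0.14, limma adjusted p = 0.000314), a call that was lost without either 5-AZA sample.

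No gene of the set was on the following lists, and their calls over all genes are given for comparison. Among 250 tested solute carriers and ABC transporters 36 were called higher and 4 lower (20 and 28 after quantile normalization), of which Slc5a3, the myo-inositol transporter, had 193 and 193 FPKM untreated and 86.2 and 91.1 FPKM after 5-AZA (limma, adjusted p = 4.16e-05). Among 36 tested NRF2 and glutathione genes 12 were called higher and 1 lower, Nqo1, which had 160 and 134 FPKM untreated and 64.9 and 71.7 FPKM after 5-AZA (limma, adjusted p = 0.000178). Among 18 tested mesenchymal stem cell surface markers 7 were called higher and 1 lower, Ngfr, which had 0.782 and 0.703 FPKM untreated and 0.0233 and 0.00984 FPKM after 5-AZA (limma, adjusted p = 0.000444). Among 356 tested zinc finger genes 4 were called higher and 3 lower, among 62 cadherins 18 and 2, and among 46 receptor tyrosine kinases and phosphatases 9 and 1, and quantile normalization turned these to 1 and 24, 1 and 8, and 3 and 4. Among 32 YAP/TEAD and SRF target genes 5 were called higher and 1 lower, and among 20 nucleotide and purine signalling genes 7 and 1. Immediate early genes (5 of 30 called higher), ATF4 and amino acid stress genes (4 of 34), actin regulators and adhesion adaptors (12 of 73), prostanoid and eicosanoid genes (10 of 20) and oncofetal genes (3 of 8) held 0 genes called lower by limma, and the list of actin regulators does not hold Spire2 of the set. At an unadjusted p below 0.05 and any fold, 2, 3, 12, 1 and 0 genes of these lists were lower, and quantile normalization gave 2, 0, 1, 1 and 0 lower calls. Some of these genes passed the adjusted limit but fell by less than 2-fold, such as Jund (limma, adjusted p = 0.0266). Neural and glial markers had 3 of 7 called higher and 1 lower (2 and 2 after quantile normalization).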
